A study of Mus musculus with 28 samples.

Results

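Messenger RNA of 8 metabolic enzymes was followed in mTECs, the medullary epithelial cells of the mouse thymus, which transcribe genes of many other tissues. The enzymes are those of glucose synthesis (Pck1 and Fbp1), of fructose use (Khk) and of the urea cycle (Cps1, Otc, Ass1, Asl and Arg1). They were listed by gene symbol, by pathway and with earlier results of these data known, and all 8 were found among the 55011 genes of the count table. The table holds 28 libraries in 8 groups, from 4330120 to 8342583 counts each, and every level below is in CPM, counts scaled by library total, with the totals adjusted by TMM, which centres most genes.

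Wild-type C57BL/6 mTECs came as an entero-hepato sort (n = 3) and a non-entero-hepato sort (n = 3), a gate that the series title ties to gut and liver genes. All other mice carried 1 copy of Foxn1-Cre, which is active in thymic epithelium. In the control genotype Hnf4a was fl/+ and Hnf4g was +/-. Hnf4a-removed mice had Hnf4a fl/fl with Hnf4g still +/-, and Hnf4g-removed mice had Hnf4g -/- with Hnf4a still fl/+. Double-mutant mice combined Hnf4a fl/fl with Hnf4g -/-. The subset called Post-Aire mTEClo came from control (n = 4), Hnf4a-removed (n = 3), Hnf4g-removed (n = 3) and double-mutant (n = 4) mice, and the mTEChi subset from control (n = 4) and double-mutant (n = 4) mice. The controls of the mutants therefore lacked 1 allele of each Hnf4 gene. The Hnf4g alleles are given as + or -, not as floxed, and the sources used here give neither age nor sex of the mice. The question that the series title poses is whether Hnf4, a pair of nuclear receptors of gut and liver, controls gut and liver genes in the thymus.

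Hepatocytes make glucose from lactate, glycerol and amino acids, and the same cells turn the nitrogen of those amino acids into urea. Pck1, the cytosolic phosphoenolpyruvate carboxykinase, and Fbp1, fructose-1,6-bisphosphatase, catalyse steps that glycolysis does not run backwards. Khk, ketohexokinase, phosphorylates fructose in liver, small intestine and kidney. Cps1 and Otc act in mitochondria at the start of the urea cycle, Ass1 and Asl build arginine in the cytosol, and Arg1 splits arginine into urea and ornithine. Enterocytes and the kidney proximal tubule also express parts of these pathways, and macrophages can express Arg1.

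All 13 mTEC markers, Epcam and Aire among them, had reads in each group. In the first replicate of the control, Hnf4a-removed and Hnf4g-removed mTEClo, Aire was at 206, 186 and 168 CPM, against 413 CPM or more in the other libraries of those groups. Their summed mTEC markers were also the lowest of their groups, so mTEClo results were computed again without these 3 libraries. In the 4 double-mutant mTEClo libraries, all of which were kept, Aire was at 145 to 229 CPM. The omission thus took out low Aire on the control and single-mutant side only. The part of Aire in the mTEClo comparisons was not tested. Hnf4a was at 3.15 to 4.63 CPM on average in the mTEClo and mTEChi groups. Hnf4g was at 12.7 ± 2.73 CPM (SD, n = 4) in control against 5.23 ± 2.24 in double-mutant mTEClo (n = 4), and at 19.7 ± 3.22 against 7.54 ± 3.59 in mTEChi. Hnf4a and Hnf4g were not called in any mutant comparison (edgeR adjusted p of Hnf4g 0.0633 and 0.0862). Whole-gene counts can include reads outside the deleted part and do not check the genotype labels.

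The promoter of Pck1 is shown because Pck1 was the member that fell in double-mutant cells, and that of Otc because it holds the searched core of an HNF4 site. Both are RefSeq sequences of build GRCm38.p6 covering the 250 bases before the RefSeq start of the gene on the + strand, Pck1 at chr2:173152823-173153072 and Otc at chrX:10252055-10252304. The Pck1 window reaches into the gene as the GENCODE annotation places it, which starts at 173153048, and distances below are from the RefSeq start. Capitals mark matches to the motifs searched.
Pck1: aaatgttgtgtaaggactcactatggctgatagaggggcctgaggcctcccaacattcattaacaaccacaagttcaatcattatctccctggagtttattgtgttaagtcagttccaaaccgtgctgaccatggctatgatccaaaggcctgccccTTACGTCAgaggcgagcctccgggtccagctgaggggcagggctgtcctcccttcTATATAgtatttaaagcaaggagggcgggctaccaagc
Otc: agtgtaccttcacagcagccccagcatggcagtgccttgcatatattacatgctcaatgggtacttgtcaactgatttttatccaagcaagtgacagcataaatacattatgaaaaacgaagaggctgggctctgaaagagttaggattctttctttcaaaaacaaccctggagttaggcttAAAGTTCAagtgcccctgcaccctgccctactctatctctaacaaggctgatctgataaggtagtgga
The motifs were AAAGTNCA, the core that HNF4 proteins bind, the DR1 direct repeat of nuclear receptors, TTACGTCA, a cyclic AMP response element, and TATATA, a form of the TATA box. They were searched on both strands, none overlapped another, and they were chosen with the sequences in view. The Pck1 window held TTACGTCA from base 93 to 86 before the start and TATATA from 38 to 33. The Otc window held AAAGTTCA from base 68 to 61. Of 32851 promoter windows of the same length, AAAGTNCA was in 3.53%, DR1 in 0.0335%, TTACGTCA in 0.447% and TATATA in 5.25%. The windows of Fbp1, Khk and Ass1, the other members in the RefSeq table (5 of 8 matched), held none of the 4 motifs. A match or its absence in this window says nothing about binding elsewhere.

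Between genes, levels were compared per kilobase of exon (GENCODE M21 gene models on GRCm38). In the entero-hepato gate Pck1 stood at 87.2 ± 13.6 CPM per kb (SD, n = 3) and Arg1 at 73.5 ± 19.3, above Asl at 14.5 ± 1.28, Khk at 11.5 ± 6.30 and Ass1 at 7.74 ± 3.78. Fbp1 (3.43 ± 1.47), Cps1 (1.83 ± 1.35) and Otc (0.508 ± 0.422) were the lowest there. In each of the other 7 groups Asl had the highest mean per kb of the 8 members, from 15.7 in the non-entero-hepato gate to 32.9 in double-mutant mTEClo. Otc had the lowest mean in every group. The 5 urea cycle enzymes were thus far from equal in any group, as the map of levels per kilobase shows.

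**Figure D1:**
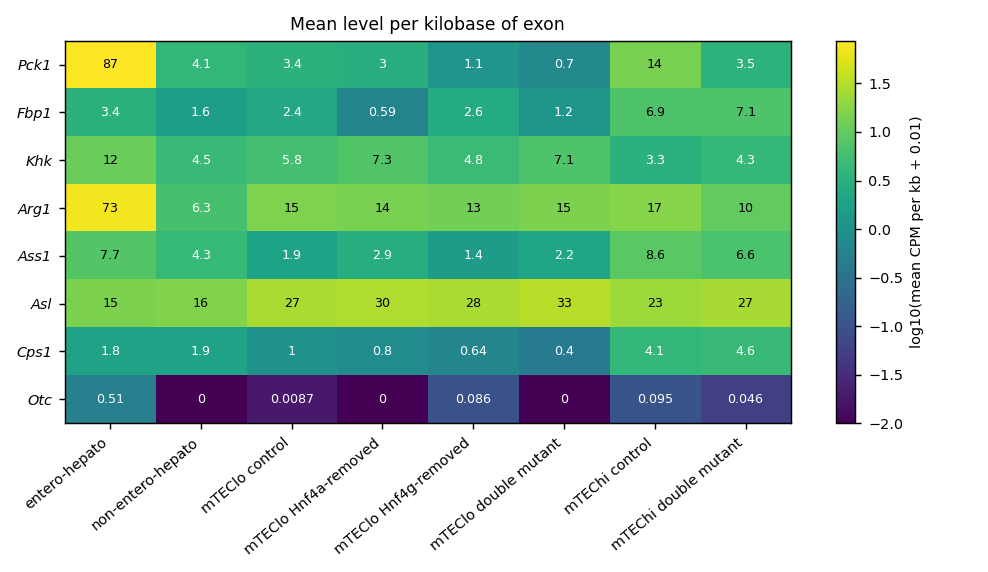
Mean level of each enzyme per kilobase of exon in the 8 groups, in CPM per kb (number in each cell; colour is log10 of the mean plus 0.01). Pck1 and Arg1 stand out in the entero-hepato gate at 87.2 and 73.5 CPM per kb, and Asl leads in the other groups.

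Pck1 (chromosome 2, 173153048 to 173159273) was at 350.5, 286.7 and 259.7 CPM in the entero-hepato libraries and at 6.85, 12.8 and 22.5 in the non-entero-hepato libraries. Every entero-hepato library lay far above the non-entero-hepato libraries. In control mTEChi it was at 53.8, 49.7, 37.0 and 50.4 CPM, and in double-mutant mTEChi at 7.84, 18.2, 11.7 and 10.3, with no overlap between these groups. Control mTEClo had 7.89, 13.9, 5.49 and 19.2 CPM, Hnf4a-removed 8.25, 14.1 and 8.33, Hnf4g-removed 0.551, 5.82 and 5.13, and double-mutant mTEClo 0.543, 0.735, 1.19 and 7.11. Ordered by mean, the entero-hepato gate was followed by control mTEChi and then by the non-entero-hepato gate, each apart from the next in all libraries. The non-entero-hepato gate, double-mutant mTEChi, control mTEClo and Hnf4a-removed mTEClo overlapped as neighbours. Hnf4g-removed mTEClo lay below Hnf4a-removed mTEClo without overlap, and it overlapped with the double mutant. The single mutants were not tested against each other, and how many genes separate in this way was not counted. Both overlapped with control mTEClo.

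**Figure D2:**
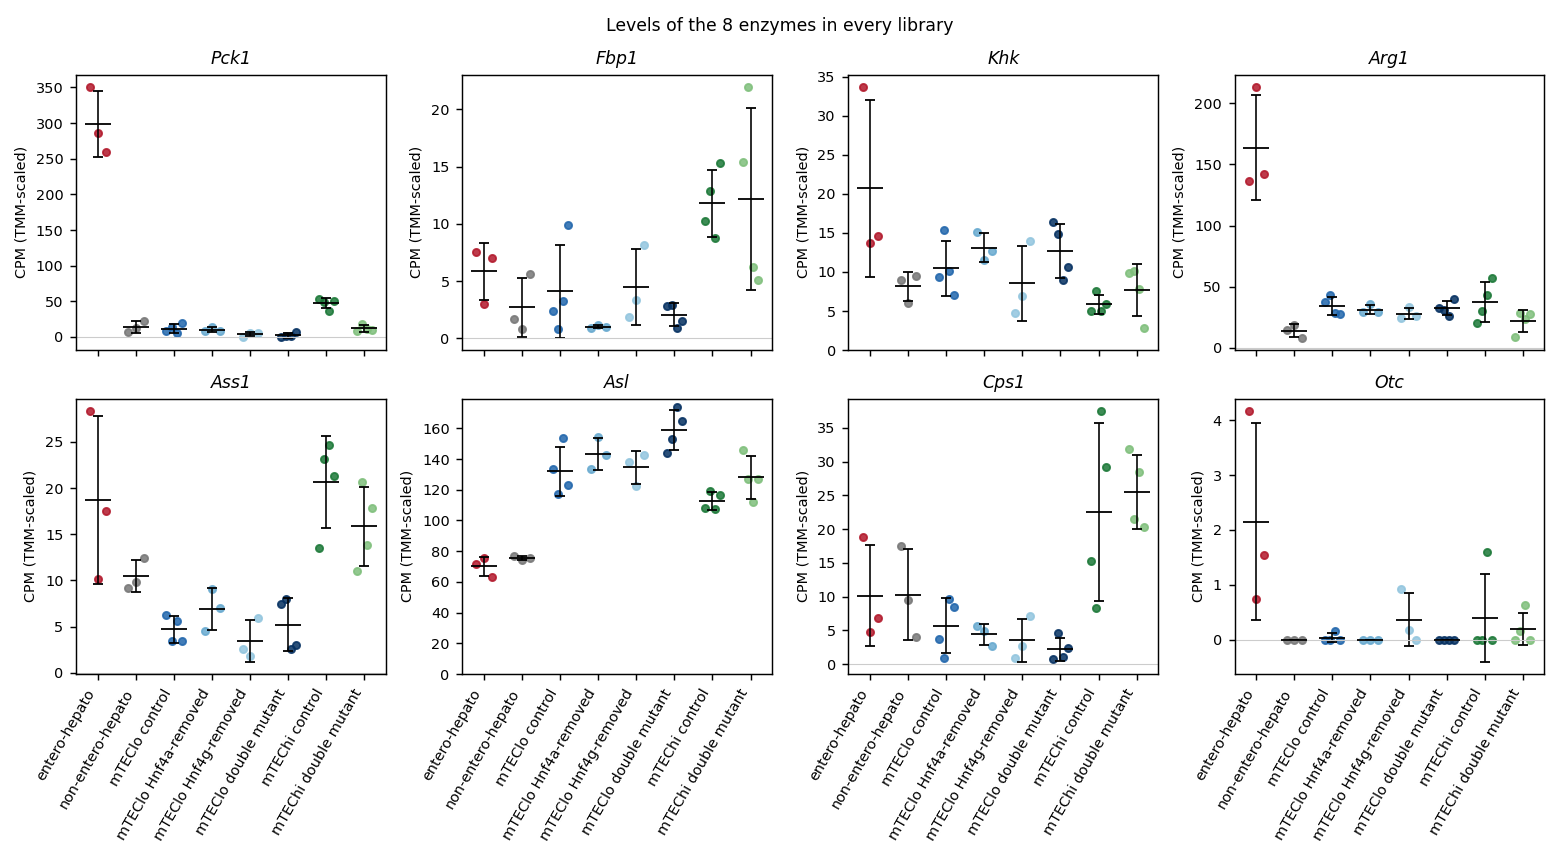
Level of each enzyme in every library (points, CPM on a linear axis of its own per panel) with the group mean and SD (bars), n = 3 or 4 per group. Pck1 and Arg1 are highest in the entero-hepato libraries, Cps1 and Fbp1 in mTEChi, and Asl in mTEClo.

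In the comparison of the wild-type gates, 3 of 7 tested members were higher in the entero-hepato gate and 0 lower by edgeR (adjusted p under 0.05 over 16811 genes), where 44.5% of all tested genes were called, 22.7% higher and 21.8% lower. The median log2 fold change of the 7 was 1.09, against -0.05 over all tested genes. The eighth member, Otc, had too few reads for the filter on low counts in this and every other fit.

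Pck1 had a log2 fold change of 4.39 (SE 0.33, adjusted p = 1.56e-05 by edgeR) between the gates, from 299.0 ± 46.6 against 14.1 ± 7.92 CPM (SD, n = 3 each). Arg1 (chromosome 10, 24915221 to 24927484) was at 136, 213 and 142 CPM in the gate and at 14.9, 18.7 and 8.45 outside it. All its entero-hepato libraries were above all others in the table. Its log2 fold change was 3.53 (SE 0.29, adjusted p = 2.46e-05 by edgeR). Pck1 and Arg1 were called under all 11 other settings, including the omission of each library in turn.

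Khk (chromosome 5, 30921431 to 30931248) was at 33.8, 13.7 and 14.6 CPM in the entero-hepato libraries against 8.92, 6.09 and 9.46 outside the gate. The groups did not overlap, but the first entero-hepato library stood well above the other two of its group. Its log2 fold change of 1.32 (SE 0.39, adjusted p = 0.0237 by edgeR) did not pass without entero-hepato replicate 1 (0.81, adjusted p = 0.0816), non-entero-hepato replicate 1 (1.40, 0.0524) or non-entero-hepato replicate 2 (1.17, 0.0795), nor on plain library totals (0.95, 0.0663). On those totals the median over all genes lay at -0.41 in place of -0.05.

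The other urea cycle and glucose synthesis members did not pass between the gates. Asl (chromosome 5, 130011258 to 130029247) was at 70.2 ± 6.18 against 75.7 ± 1.13 CPM, a log2 fold change of -0.12 (SE 0.11, edgeR adjusted p = 0.38). On plain totals, with the shift in the median given above, that value was -0.49 (adjusted p = 0.00524). Ass1 (chromosome 2, 31470207 to 31520672) was at 28.3, 10.2 and 17.5 CPM in the gate against 9.13, 9.87 and 12.5 (log2 fold change 0.82 with SE 0.37 and edgeR adjusted p = 0.105), and passed without entero-hepato replicate 2 (1.15, adjusted p = 0.0192). Fbp1 (chromosome 13, 62864753 to 62888282) was at 7.50, 2.97 and 7.05 CPM against 1.66, 0.840 and 5.63 (1.09 with SE 0.69 and edgeR adjusted p = 0.233), and passed without non-entero-hepato replicate 3 (2.19, adjusted p = 0.0395). Cps1 (chromosome 1, 67123026 to 67231259) was at 18.8, 4.82 and 6.88 CPM against 17.4, 9.45 and 4.02 (-0.04 with SE 0.62 and edgeR adjusted p = 0.962). The groups overlapped for these 4 genes.

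Otc (chromosome X, 10252305 to 10321024), which joins carbamoyl phosphate to ornithine, had 20, 4 and 9 reads in the entero-hepato libraries and 0 reads in the non-entero-hepato libraries. A count of 0 over the 3 libraries outside the gate allows up to 3 reads there. Against that limit Otc, with 33 reads in the gate, had an observed share of the counts 7.72-fold higher in the gate. Elsewhere it had at most 11 reads in a library. It had 0 reads in all Hnf4a-removed and double-mutant mTEClo libraries, 1 read in control and 6 in Hnf4g-removed mTEClo, 11 in control mTEChi (all in 1 library) and 6 in double-mutant mTEChi. The limit used for the fold covers the counting error of the 0 only. It covers neither that of the reads in the gate nor the spread between libraries.

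Markers of other cells differed between the same gates. The hepatocyte markers summed to 639 to 1610.4 CPM in the entero-hepato gate and to 42.6 to 64.0 outside it, and most of that sum was Ttr, the carrier transthyretin, at 896 CPM on average against 11.3. Of the same list, Ahsg was at 0.247 against 3.64 CPM, Cyp2e1 at 2.34 against 2.66 and Fgb at 10.03 against 7.54. The 12 enterocyte markers summed to 13032 to 19723 CPM in the entero-hepato libraries and to 410.0 to 506 outside the gate. The 12 kidney proximal tubule markers summed to 284 to 317 against 65.6 to 111 CPM, with Slc22a6 at 0 reads in the gate. Most of that sum in the gate was Fxyd2, at 192 against 33.3 CPM on average. Of the same list, Miox was lower in the gate, at 0.131 against 4.89 CPM, as was Slc5a2, at 1.34 against 1.87. The 16 myeloid markers summed to 1491 to 1826 against 539 to 724 CPM, all 16 having reads in both gates, and the 7 erythroid markers to 171 to 249 against 19.5 to 32.8 CPM. Most of the myeloid sum was Lyz2, at 673 against 233 CPM on average, and Ctss, at 475 against 180. Of the same list, Adgre1 was lower in the entero-hepato gate, at 13.8 against 29.9 CPM. Flt3 (5.16 against 6.15) and Xcr1 (1.62 against 1.87) were slightly lower. The microfold markers summed to 6390.1 to 6893 against 2277 to 2428 CPM, though of these Anxa5 averaged 1084 against 1182. The tuft markers went the other way, at 180.4 to 447 against 2364 to 3590.4 CPM, as did Aire, at 647 to 1066 against 1582 to 1670.0 CPM. The 13 mTEC markers, Aire among them, summed to 30984 to 35347 against 17718 to 19246 CPM. Of these, Epcam averaged 1987 against 744 CPM and H2-Aa 9077 against 4337, while Krt5 averaged 112 against 1380. The myeloid sum was 1826 to 2339 CPM in control mTEChi, where Arg1 was at 37.6 ± 16.3 CPM (SD, n = 4). The part of these cells in the levels of the members was not tested. In bulk libraries, fewer cells of a type and less RNA per cell cannot be told apart.

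The neighbouring steps of these pathways were read from 6 lists with 144 genes, members left out. Between the gates, 51 of 132 tested genes were higher and 15 lower, with a median log2 fold change of 0.39. Of the fructose list 8 of 13 were higher and 2 lower (median 1.498). Tkfc, which phosphorylates glyceraldehyde, was at 223 ± 80.9 against 41.7 ± 2.68 CPM, and Mlxipl, the sugar-responsive transcription factor ChREBP, at 88.6 ± 22.2 against 15.4 ± 6.80. Tkfc had a log2 fold change of 2.40 (SE 0.23), beside 1.32 for Khk, which acts before it. These changes were not tested against each other.

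Of the gluconeogenesis list, which also holds the reversible steps of glycolysis and carriers, 16 of 26 were higher and 2 lower (median 0.63). Gk, glycerol kinase, was at 138 ± 20.5 against 28.5 ± 3.30 CPM and the malate dehydrogenase gene Mdh1 at 823 ± 24.2 against 303 ± 30.7. Ldha, lactate dehydrogenase A, rose by 1.26 on the log2 scale (SE 0.10). The control points of glycolysis, which runs the opposite way, had 6 of 15 genes higher and 1 lower (median 0.34). Pklr, the pyruvate kinase of liver, was at 175 ± 32.7 against 2.76 ± 1.92 CPM (log2 fold change 5.96 with SE 0.34 and edgeR adjusted p = 3.98e-06), and Pfkp, Pfkfb4 and Hkdc1 rose by 1.26, 2.17 and 2.702.

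The list around the urea cycle and ornithine had 9 of 25 genes higher and 6 lower (median 0.23). Nos2, the inducible nitric oxide synthase, which like Arg1 uses arginine, was at 657 ± 85.8 against 97.9 ± 23.2 CPM (2.73, SE 0.19). Glud1, glutamate dehydrogenase, and Slc25a13, the aspartate and glutamate carrier, rose by 1.44 and 0.76, and Ddah2 fell by 1.60 on the log2 scale. Amino acid catabolism had 3 of 29 higher and 3 lower (median -0.11). Its alanine aminotransferases moved in opposite directions, Gpt at 101 ± 20.5 against 13.9 ± 3.37 CPM and Gpt2 at 19.5 ± 2.09 against 78.7 ± 14.4. Of 25 regulators 10 were higher and 1 lower (median 0.62), among them Creb3l3, a liver and gut factor, at 139 ± 40.04 against 1.99 ± 1.38 CPM, and Nr1h3, the oxysterol receptor LXR alpha. Hnf4a and Hnf4g were at 49.8 ± 17.3 and 147 ± 27.6 against 5.78 ± 0.329 and 18.9 ± 1.97 CPM.

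In double-mutant mTEChi, 1 of 7 tested members, Pck1, was lower than in control and 0 were higher (edgeR over 18413 genes), where 0.597% of all tested genes were called lower and 0.038% higher. The median log2 fold change of the 7 was 0.03, against 0.01 over all genes. Pck1 fell from 47.8 ± 7.37 to 12.01 ± 4.401 CPM (SD, n = 4 each; log2 fold change -1.99 with SE 0.25 and edgeR adjusted p = 0.00196). It was lower in all 4 double-mutant libraries than in any control library and was called under all 13 other settings, with log2 fold changes from -2.26 to -1.84. The summed enterocyte markers were 1091 to 1523 CPM in these control libraries and 474 to 534 in the double mutants. The hepatocyte markers were at 116 to 235 against 57.0 to 101, the kidney proximal tubule markers at 210.2 to 242 against 169 to 204 and the microfold markers at 3552 to 4358 against 2875 to 3400 CPM in control and double mutant. Members of the last lists moved both ways. Of the kidney list, Fxyd2 averaged 149 against 107 CPM but Lrp2 11.3 against 18.1. Of the microfold list, Gp2 averaged 919 against 315 CPM, but Spib 323 against 419 and Anxa5 1485 against 1568. The part of these lists in the fall of Pck1 was not tested.

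Arg1, the other member of high level in the gate, did not pass in mTEChi. It was at 20.0, 29.8, 43.2 and 57.5 CPM in control and at 9.22, 28.6, 23.8 and 27.4 in double-mutant libraries, which overlapped (log2 fold change -0.76 with SE 0.36 and edgeR adjusted p = 0.463). Ass1 was at 20.7 ± 4.96 against 15.8 ± 4.24 CPM in control and double mutant (-0.38 with SE 0.26 and edgeR adjusted p = 0.632). Cps1 (22.6 ± 13.2 against 25.5 ± 5.52), Fbp1 (11.8 ± 2.91 against 12.2 ± 7.98), Khk (5.87 ± 1.22 against 7.66 ± 3.34) and Asl (113 ± 6.01 against 128 ± 13.8) had log2 fold changes between 0.03 and 0.38, with adjusted p of 0.579 or more. Among the 136 other pathway genes tested, 0 were higher and 1 was lower. This was Pklr, at 1.54 ± 0.668 against 9.28 ± 4.60 CPM (-2.56 with SE 0.51 and edgeR adjusted p = 0.0436).

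**Figure D3:**
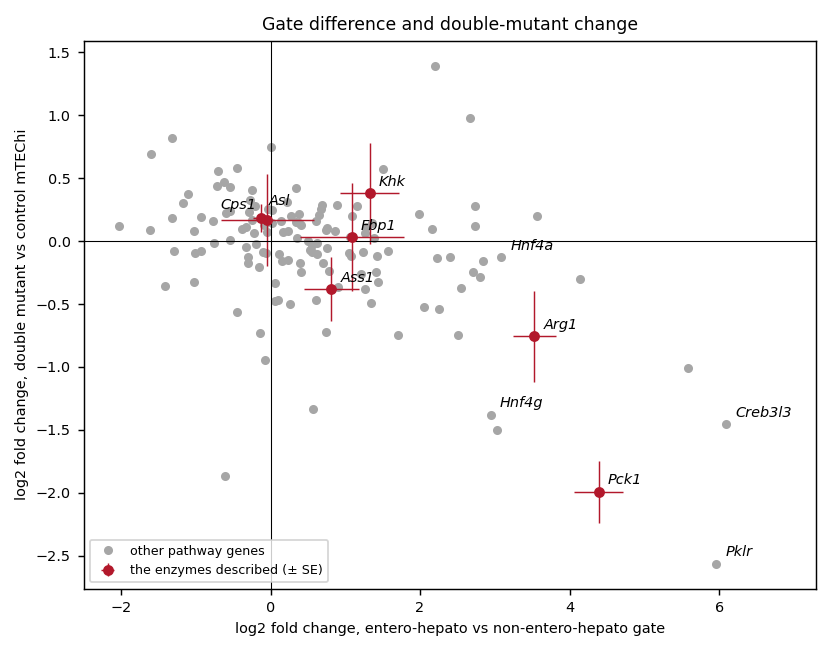
Log2 fold change between the wild-type gates (horizontal) against that between double-mutant and control mTEChi (vertical) for the members (red, bars are SE) and the other pathway genes (grey); the comparisons share no library. Pck1 lies at 4.39 and -1.99 and Arg1 at 3.53 and -0.76, while Khk, Fbp1, Ass1, Asl and Cps1 lie between -0.38 and 0.38 on the vertical axis.

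In mTEClo lacking both genes, 0 of 7 members passed (edgeR over 18775 genes; 2 at an unadjusted p under 0.05 and 1 by DESeq2), where 0.74% of all tested genes were called, 0.16% higher and 0.581% lower. Pck1 was at 2.39 ± 3.15 against 11.6 ± 6.15 CPM (SD, n = 4 each), a log2 fold change of -2.28 (SE 0.73, adjusted p = 0.188 by edgeR). Its 4 double-mutant libraries were at 4, 5, 9 and 48 reads, and the highest, replicate 4, lay within the control range of 37 to 133 reads. Without that library the log2 fold change was -3.79 (adjusted p = 0.025 by edgeR), and DESeq2 with all libraries gave -2.29 (adjusted p = 0.0405). With no filter on low counts edgeR gave -2.27 (adjusted p = 1.47e-05). That setting hardly moved the fold change, and it called more of all genes in every mutant comparison, as the last section gives. Without the 3 mTEClo replicate 1 libraries of low Aire the log2 fold change of Pck1 was -2.43 (adjusted p = 0.0903 by edgeR). The summed enterocyte markers were 591 to 885 CPM in control and 229 to 311 in double-mutant mTEClo. In the same order, the tuft markers summed to 10974 to 14760 against 16298 to 16911 CPM. The microfold markers were at 4701 to 6118 against 4198 to 4555, though of these Spib averaged 724 against 810. The mTEC markers were at 8318 to 12167 against 7033 to 7683, though of these Krt14 averaged 116 against 174. The part of these lists in the values of Pck1 was not tested.

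Arg1 was at 37.4, 42.9, 28.2 and 27.5 CPM in control and at 32.4, 31.2, 26.3 and 39.7 in double-mutant mTEClo. These ranges overlapped, with a log2 fold change of -0.07 (SE 0.17, adjusted p = 0.924 by edgeR). Asl was at 132 ± 16 against 159 ± 13.2 CPM (0.26 with SE 0.10 and edgeR adjusted p = 0.279, unadjusted p = 0.0193). Cps1, at 5.70 ± 4.08 against 2.20 ± 1.71 CPM (-1.38, SE 0.71), and Fbp1, at 4.10 ± 4.03 against 2.05 ± 1.00 (-0.999, SE 0.66), had adjusted p of 0.461 and 0.599. Without double-mutant replicate 2 the value of Cps1 was -2.01, and without control replicate 4 that of Fbp1 was -0.074. Khk (10.5 ± 3.54 against 12.7 ± 3.48 CPM) and Ass1 (4.69 ± 1.49 against 5.22 ± 2.88) had log2 fold changes of 0.28 and 0.15. Of 130 other pathway genes tested, 1 was called, Prodh, the proline dehydrogenase of mitochondria, which was lower at 3.17 ± 0.690 against 10.7 ± 2.17 CPM (-1.75 with SE 0.32 and edgeR adjusted p = 0.0174).

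Removal of Hnf4a alone left 0 of 7 members called in mTEClo (edgeR; 1 at an unadjusted p under 0.05 and 0 by DESeq2; 0.00533% of all genes called). That 1 was Fbp1, at 0.900, 1.17 and 0.962 CPM in the Hnf4a-removed libraries against 2.41, 0.771, 3.26 and 9.94 in control (log2 fold change -2.01 with SE 0.78 and edgeR adjusted p = 0.803), from 6 to 8 reads per Hnf4a-removed library. Without control replicate 4 its log2 fold change was -1.08. The ranges overlapped at the second control library. Pck1 was at 10.2 ± 3.35 against 11.6 ± 6.15 CPM (-0.19 with SE 0.73 and edgeR adjusted p = 0.992).

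Removal of Hnf4g alone also left 0 of 7 members called (edgeR; 0 at an unadjusted p under 0.05 and 0 by DESeq2; 0.0959% of all genes called). Pck1 was at 3.83 ± 2.86 CPM (SD, n = 3) against 11.6 ± 6.15 (n = 4), a log2 fold change of -1.58 (SE 0.78, adjusted p = 0.637 by edgeR). Its Hnf4g-removed libraries had 3, 33 and 37 reads, and the second, at 5.82 CPM, lay within the control range. The enterocyte markers summed to 241 to 361 CPM in Hnf4g-removed and 591 to 885 in control mTEClo, though of these Guca2a averaged 4.84 against 4.04. Their part in the value of Pck1 was not tested. Arg1 was at 27.9 ± 4.64 against 34.0 ± 7.45 CPM (-0.28, SE 0.19, adjusted p = 0.776). The 3 mutant comparisons in mTEClo share the same control libraries. Among other pathway genes 0 of 130 were called in either single mutant (11 at an unadjusted p under 0.05 for Hnf4a and 15 for Hnf4g).

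Whether the double-mutant effect differed between mTEChi and mTEClo was tested with an interaction term, which called 0 of 7 members (edgeR; 0 at an unadjusted p under 0.05 and 0 by DESeq2; 0.0597% of all genes called, 0.0398% higher and 0.0199% lower). For Pck1 the difference, mTEChi minus mTEClo, was 0.30 on the log2 scale (SE 0.74, adjusted p = 0.928). Of the other pathway genes 0 of 139 were called (18 at an unadjusted p under 0.05). For Arg1 the difference was -0.69 (SE 0.44, adjusted p = 0.616) and for Cps1 1.56 (SE 0.81, adjusted p = 0.495).

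**Figure D4:**
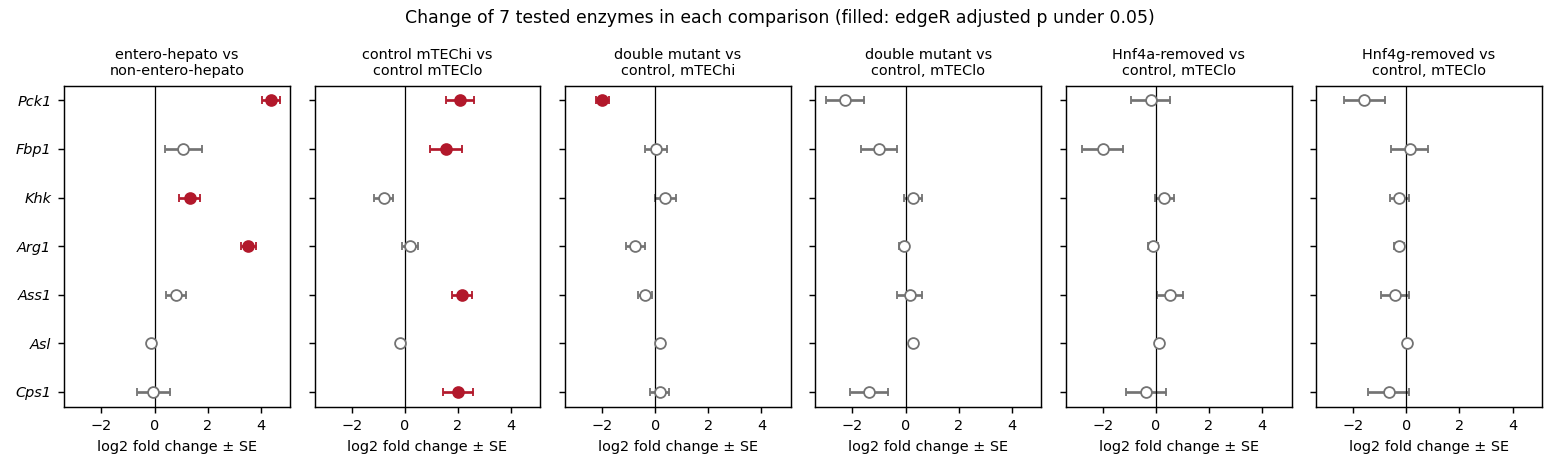
Log2 fold change with SE (bars) of the 7 tested enzymes in 6 comparisons; filled red points passed edgeR's test at an adjusted p under 0.05 and open points did not. Pck1 passed in 3 of the 6 panels, higher in the entero-hepato gate (4.39) and in control mTEChi (2.07) and lower in double-mutant mTEChi (-1.99).

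Control mTEChi differed from control mTEClo in 4 of 7 tested members, all higher, and in 0 lower (edgeR over 20095 genes), where 22.4% of all tested genes were called higher and 20.5% lower. The median log2 fold change of the 7 was 1.55, against 0.04 over all genes. Pck1 was at 47.8 ± 7.37 against 11.6 ± 6.15 CPM (log2 fold change 2.07 with SE 0.51 and edgeR adjusted p = 0.00343). Ass1 was at 13.5, 23.2, 24.6 and 21.3 CPM in control mTEChi and at 6.28, 3.39, 5.64 and 3.46 in control mTEClo, with no overlap (2.16, SE 0.37, adjusted p = 0.000154). Cps1 was at 15.3, 8.32, 37.5 and 29.1 against 3.74, 0.925, 9.64 and 8.50 CPM (2.01, SE 0.57, adjusted p = 0.00834), and the second mTEChi library fell within the range of mTEClo.

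Fbp1 was at 10.3, 12.8, 8.75 and 15.4 CPM in control mTEChi against 2.41, 0.771, 3.26 and 9.94 in control mTEClo (log2 fold change 1.55 with SE 0.60 and edgeR adjusted p = 0.0435). Its call was lost without control mTEClo replicate 1 (adjusted p = 0.113), 2 (0.103) or 3 (0.0964) and without control mTEChi replicate 1 (0.0593), 2 (0.0756) or 4 (0.0982). Without control mTEClo replicate 4 its log2 fold change was 2.47 (adjusted p = 0.00302). Khk was at 5.87 ± 1.22 against 10.5 ± 3.54 CPM (-0.80, SE 0.36, adjusted p = 0.0799), Asl at 113 ± 6.01 against 132 ± 16 (-0.20, SE 0.11, adjusted p = 0.14) and Arg1 at 37.6 ± 16.3 against 34.0 ± 7.45 (0.19, SE 0.31, adjusted p = 0.658). The subsets also differed in their mixture, with summed tuft markers at 526 to 840 CPM in control mTEChi and 10974 to 14760 in control mTEClo and summed enterocyte markers at 1091 to 1523 against 591 to 885. In control mTEChi and control mTEClo the hepatocyte markers summed to 116 to 235 and 31.2 to 63.9 CPM, the myeloid markers to 1826 to 2339 and 604 to 897, and the kidney proximal tubule markers to 210.2 to 242 and 70.0 to 113. In the same order, some members went against these higher sums. Of the enterocyte list, Cdhr5 averaged 156 against 229.9 CPM, Vil1 63.8 against 78.8 and Fabp1 24.4 against 28.2. Of the hepatocyte list, Ahsg averaged 3.76 against 11.9 CPM and Serpina1b 4.18 against 5.66. The kidney marker Cubn averaged 4.73 against 14.3 CPM and the myeloid marker Ptprc 16.01 against 26.2. The other members of these lists had higher means in control mTEChi. The part of this mixture was not tested. The labels name no batch, so sorted subset and any batch of preparation cannot be told apart.

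Of the other pathway genes, 46 of 139 were higher and 30 lower in control mTEChi (median log2 fold change 0.18). Around the urea cycle, 14 of 26 were higher and 5 lower (median 0.76). Arg2, the mitochondrial arginase, was at 172 ± 32.1 against 50.3 ± 14.5 CPM (1.80, SE 0.18), Prodh at 32.0 ± 4.07 against 10.7 ± 2.17 and Nos1 at 13.8 ± 6.75 against 1.51 ± 0.854, while Gamt, which makes creatine, was at 1.505 ± 0.536 against 22.3 ± 4.87 (-3.81, SE 0.31). Of amino acid catabolism 16 of 30 were higher and 5 lower (median 1.31), among them Kynu, a kynurenine pathway enzyme, at 108 ± 10.4 against 34.4 ± 10.4 CPM. The gluconeogenesis list had 4 of 26 higher and 8 lower (median -0.02), with Tpi1 at 299 ± 29.9 against 449 ± 51.2 CPM. The fructose list had 3 of 14 higher and 2 lower (median 0.46). Control points of glycolysis had 3 of 15 higher and 4 lower (median -0.16), with Hk2 at 36.6 ± 7.90 against 10.6 ± 2.99 and Hk1 at 46.8 ± 9.96 against 125 ± 14.4 CPM, and regulators had 7 of 29 higher and 6 lower (median -0.06).

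Across all 28 libraries the members did not follow a single pattern. As a description, with no test and with groups of libraries that share their sort and genotype, the Pearson correlation of log2(CPM + 1) between members was highest for Cps1 with Ass1 (0.738) and lowest for Asl with Pck1 (-0.717). The genes most like Pck1 were Soat2 (0.956), Prap1 (0.951), Ms4a10 (0.946), Btnl1 (0.944) and Cdh17 (0.939). Among the 5 most like Arg1 were Sema4a (0.910), Pigr (0.888), Smim24 (0.877) and Apobr (0.876). The highest correlations were 0.920 for Asl (Trappc1), 0.882 for Ass1 (Ghrhr), 0.871 for Cps1 (Cpne2), 0.835 for Fbp1 (Inhbb) and 0.756 for Khk (Pkm). The lists for Pck1 and Arg1 had no gene in common, but they hold only 5 genes each. Pck1 and Arg1 correlated with each other at 0.616.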

How the data were processed

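RNA was sequenced from 1000 sorted cells per library, copied from an oligo(dT) primer and amplified without molecular identifiers, per the labels' protocols. The deposited values are raw read counts per gene symbol, made by the authors with STAR 2.7.3a and featureCounts on build mm10, per the submitters' processing notes. The sources used here give neither the annotation nor the counting settings. All 28 columns matched a sample title, and 0 were left without a sample. Thymi are numbered in the labels, which do not state that each number is a separate mouse. The p-values therefore rest on variation among libraries that may be technical. In 36 replicate pairs, chi-square divided by its degrees of freedom ranged from 5.93 to 24.2, and none agreed within sampling noise. No annotated exon of another gene overlapped a member.

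The count model was edgeR 4.0.16 (R 4.3.3) with its quasi-likelihood test and TMM scaling (filterByExpr with a minimum count of 10 and total of 15, Benjamini-Hochberg adjustment over all tested genes, call at adjusted p under 0.05). Separate models covered the 2 wild-type sorts, the 4 mTEClo groups, the 2 mTEChi groups and the comparisons across subsets, 7 comparisons in all. The procedure was tested on simulated data. Alternatives were DESeq2 1.42.0, other scalings, no filter, a replicate block, fewer groups and omission of libraries; plain totals and the omission of 3 mTEClo libraries were added after the data were seen. Members and lists were chosen with earlier results of these data known. Named were all members, Hnf4a, Hnf4g and up to 4 called genes of smallest p per list, of which some are not reported here, and the 5 genes of highest correlation for members with at least 10 CPM in a group.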

Additional observations from a re-analysis of the deposited data

Results flagged for a closer look

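Among the members' levels in groups of 4 libraries, Pck1 in double-mutant mTEClo replicate 4, at 7.11 CPM, lay far above the other 3 libraries of its group (0.543 to 1.19 CPM). Otc in control mTEChi replicate 3, at 1.60 CPM from 11 reads, stood beside 3 libraries with 0 reads, so that any value above 0 in the fourth would have passed. Each gap exceeded the limit of Dixon's test. Groups with at most 3 reads in every library were not flagged. Otc in control mTEClo, with 1 read in 1 library, also exceeded the limit and was left out in this way. Chance passes it in about 1 of 20 groups, and 31 groups were tested, those not flagged included, so such gaps are near the number that chance gives.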

How the results depend on the processing

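For the 8 called changes of members, 95 alternatives kept call and direction and 11 lost the call, 4 for Khk between the gates and 7 for Fbp1 between the control subsets. The causes were not tested. For the 41 changes not called, 578 alternatives kept direction without a call, 10 passed the threshold and 34 turned sign. Libraries of equal replicate number were little correlated (correlations of deviations from the group means -0.0201 to 0.0754, and 0.239 for replicate 1 of control and Hnf4g-removed mTEClo), though each library of the wild-type gates correlated best with its own number. The labels do not say whether equal numbers in different sorts mark the same thymus, and such small correlations cannot decide it. The main fits did not pair libraries. With a replicate block, 1 member was called in double-mutant mTEClo (Pck1, -2.80, adjusted p = 0.0315 by edgeR), the difference of the double-mutant effects called 1 gene, and signs turned for Cps1 (0.021) and Pck1 (0.38) in Hnf4a-removed mTEClo, Fbp1 in double-mutant mTEChi (-0.16) and Khk in the difference of effects (-0.024). Genes called in double-mutant mTEClo numbered 139, and 456 by DESeq2, 967 without the filter, 295 with 2 groups only and 543 without the libraries of low Aire. For Hnf4a-removed mTEClo these were 1, 8, 212, 0 and 0. For Hnf4g-removed mTEClo they were 18, 143 by DESeq2, 482 without the filter and 11 without those libraries. For double-mutant mTEChi they were 117, 439 and 619, and for the difference of effects 12, 360, 321 and 85. Without the filter 5 members were called between the gates, 1 in double-mutant mTEClo, 1 in Hnf4g-removed mTEClo and 2 in double-mutant mTEChi, and Cps1 between the gates was at 0.000495. In the mutant comparisons these counts stand beside the 967, 482 and 619 genes called above. No such number of genes is given here for the gates, so the 5 members cannot be set against it. DESeq2 called 1 member in double-mutant mTEClo. Leaving out each library in turn gave 6301 to 6664 genes between the gates, 47 to 207 in double-mutant, 0 to 1 in Hnf4a-removed and 9 to 23 in Hnf4g-removed mTEClo, 71 to 188 in double-mutant mTEChi, 7370 to 8405 between subsets and 1 to 157 for the difference of effects. Members called were then 2 to 4 between the gates, 0 to 1 in double-mutant mTEClo and 3 to 4 between subsets. The same omissions moved by over 1.5 times Ass1 (to -1.11) and Cps1 (to -1.67) in Hnf4g-removed mTEClo without its replicate 3, and in the difference of effects Cps1 without double-mutant mTEClo replicate 2 (to 2.19) and Fbp1 without control mTEClo replicate 4 (to 0.11), and gave log2 fold changes on both sides of 0 for Cps1 between the gates (-0.80 to 0.57), for Arg1 (-0.18 to 0.055) and Ass1 (-0.12 to 0.38) in double-mutant mTEClo, for Arg1 (-0.23 to 0.0015), Cps1 (-0.73 to 0.00073) and Pck1 (-0.49 to 0.16) in Hnf4a-removed mTEClo, for Asl (-0.024 to 0.11), Fbp1 (-0.66 to 1.06) and Khk (-0.84 to 0.011) in Hnf4g-removed mTEClo, for Cps1 (-0.10 to 0.51) and Fbp1 (-0.43 to 0.29) in double-mutant mTEChi, for Arg1 between subsets (-0.10 to 0.39), and for Khk (-0.14 to 0.37) and Pck1 (-0.062 to 1.78) in the difference of effects. Low counts limit Otc, with 0 to 20 reads a library, and Pck1, Fbp1 and Cps1, with 3, 4 and 5 reads in their lowest libraries.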
